A study of Mus musculus with 2 samples.

Results

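Mitochondrial carriers are the proteins that move small solutes across the inner mitochondrial membrane. The genes described here are those whose platform symbol begins with Slc25a, or is Ucp1, Ucp2 or Ucp3, leaving out Slc25a13, Slc25a15, Slc25a17 and Slc25a20. They were found by symbol alone and numbered 42 of the 18193 named genes, with 89 of the 34945 probe sets that carry a single symbol. No probe set here was named Ucp2, which is not analysed here.

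Liver RNA came from 8-week-old male 129SvEJ mice that had eaten chow with 0.2% fenofibrate for 7 days. Fenofibrate is a lipid-lowering drug and a ligand of PPARα, the nuclear receptor that the Ppara gene encodes. One group was wild type and the other was PPARα-null (pparalpha -/-), and both received the drug. RNA of 3 mice was pooled per genotype, and each pool was measured on 1 Affymetrix array. Without replicates, none of the differences below could be tested or set against replicate error, and a genotype difference without the drug cannot be told apart from a difference in response to it. In whole liver, fewer cells of a type and less RNA per cell cannot be told apart either.

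Carriers of this family share a fold of repeated pairs of membrane helices and exchange or import one class of solute each, such as ADP and ATP, phosphate, carboxylates, amino acids, nucleotides, coenzymes or iron. They join the matrix, where fatty acids are oxidised and the citric acid cycle and parts of heme and urea synthesis run, to the cytosol. Uncoupling proteins belong to the same family, and Ucp1 of brown fat lets protons return to the matrix without ATP synthesis. PPARα is best known for switching on genes of fatty acid uptake and oxidation in liver.

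The values are signal intensities on a linear scale that the authors had set to a target of 1000 per array. A floor was placed at the median signal of each array, 287.8 in wild type and 269.4 in null, and signals under it were raised to it before a ratio was taken. Each gene is represented by its brightest probe set, and a gene at or above the floor on 1 array only has only a bound, given below as "at least" a fold. Ppara itself gave null signals of 42.9%, 50.6% and 36.0% of wild type at its 3 probe sets, and the disrupted part of the gene is not given in the labels. The hepatocyte marker Alb gave 192642 in wild type and 212369 in null, and the 7 hepatocyte markers measured were all lower in wild type (median log2 ratio -0.22), of which 5 turned positive under the scaling to hybridization controls described below. Of the other cells of liver, 7 of 9 measured Kupffer cell and macrophage markers and 4 of 8 endothelial and stellate cell markers were lower in wild type. So were 2 of 3 cholangiocyte markers, of which 0 were above both floors, so their directions follow from the floor. Of these markers 2 passed 2-fold, in opposite directions, beside 4.99% of all measured genes higher and 2.80% lower. Cd5l of Kupffer cells was lower (1909.8 against 4051.7), but not by 2-fold under the control scaling (log2 ratio -0.71). Pecam1 of endothelial cells was at least 2.36-fold higher (636.9 against 228.0, under the floor in null). Under that scaling C1qa and Csf1r of Kupffer cells and macrophages and Krt19 of cholangiocytes turned positive.

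Of the 42 carrier genes, 34 reached a floor at their brightest probe set: 29 on both arrays, 1 above the floor in wild type only and 4 in null only. By 2-fold or more, Slc25a30, Slc25a22 and Slc25a42 were higher in wild type and Slc25a53 was lower. That is 8.82% of the measured carriers higher and 2.94% lower, beside 4.99% and 2.80% of all 13041 measured genes. With 3 genes and 1 gene behind them, these shares do not stand apart from the background. After scaling to the hybridization controls, which moved every log2 ratio up by 0.38, the split was 6 higher and 0 lower, beside 13.5% and 0.84% of all genes under that scaling.

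The carriers as a family stood at the centre of the array. For the 29 above both floors the median log2 ratio was -0.03, beside -0.02 for the 10060 genes of the array measured on both. That sign turned under the control scaling, as it would for any list near 0. Of the 29, 14 were higher in wild type (48.3%, against 47.8% of all genes). Within 1.41-fold in either direction lay 21 of the 29, or 72.4%, against 71.96% of all genes. The larger differences were those of single carriers.

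**Figure D1:**
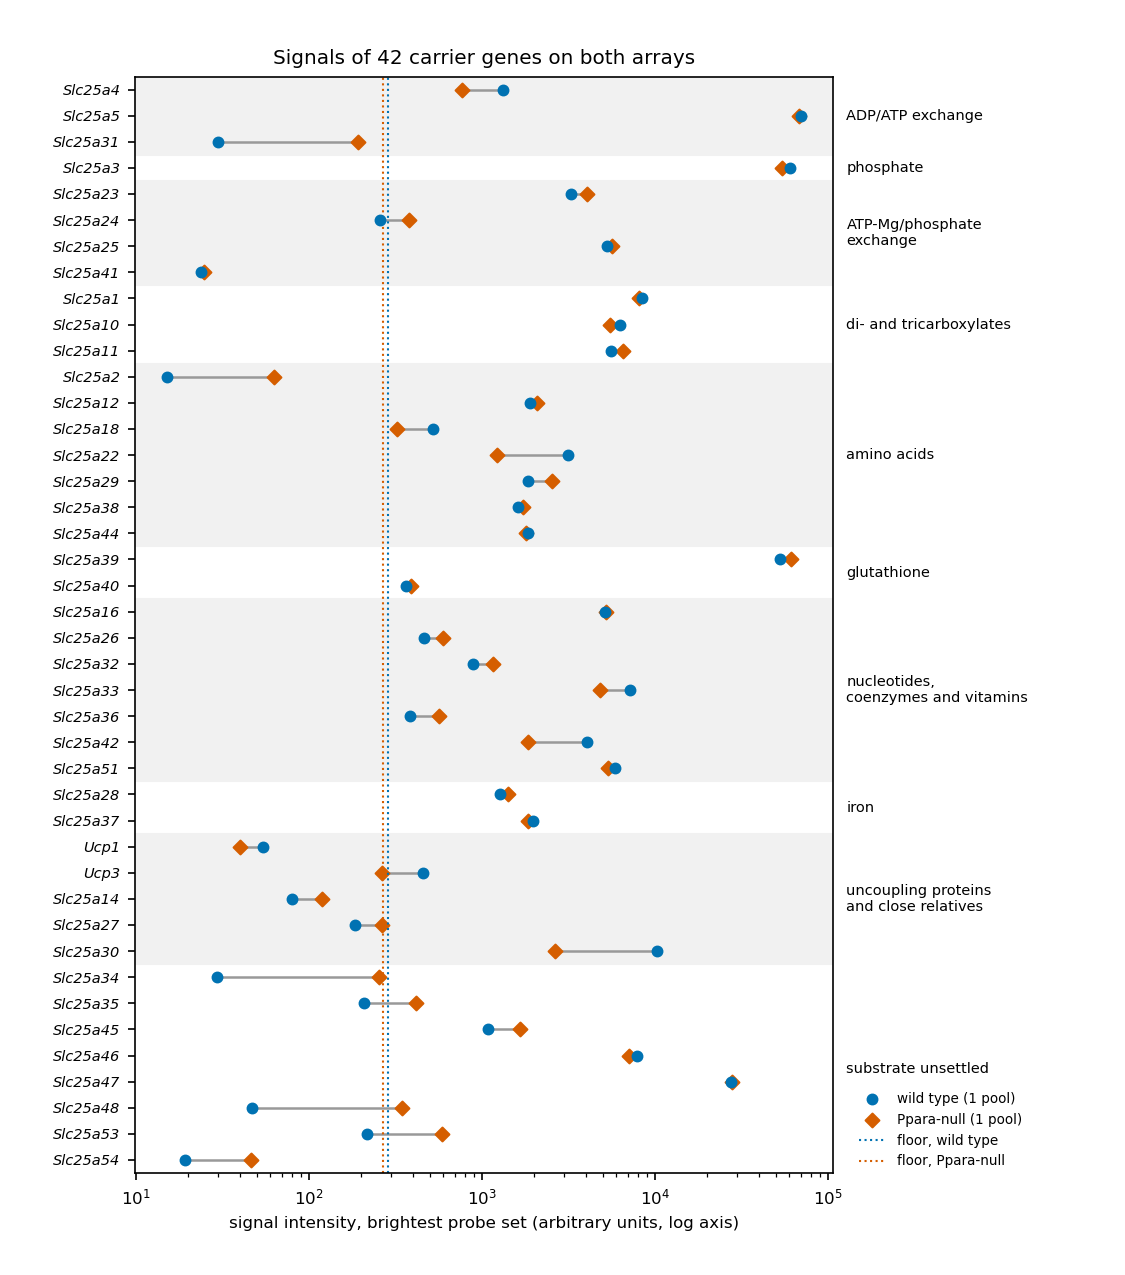
Signal intensity (arbitrary units, log axis) of the brightest probe set of each of the 42 carrier genes, grouped by substrate, on the wild-type array (blue circles) and the Ppara-null array (orange diamonds), each 1 pool of 3 mice; dotted lines are the floors of 287.8 and 269.4. The widest gap with both points clear of the floors is that of Slc25a30 (10259.9 against 2640.2), and 8 genes lie under both floors at this probe set.

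**Figure D2:**
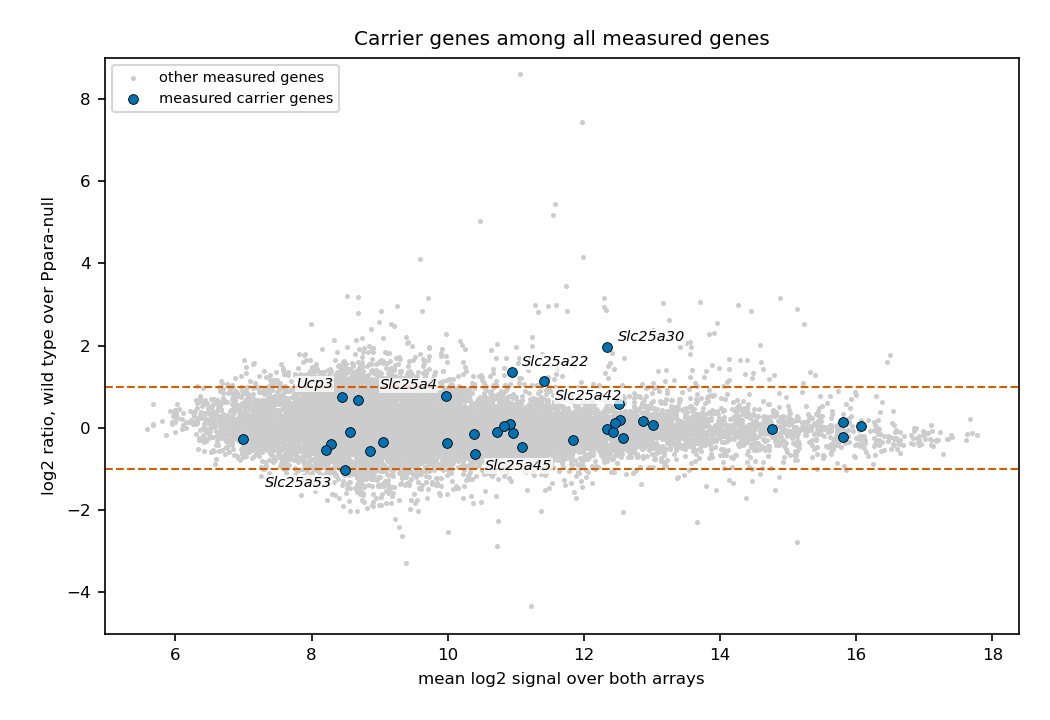
Log2 ratio of wild type over Ppara-null against the mean log2 signal over both arrays, 1 point per measured gene (grey, all 13041 measured genes; blue, the 34 measured carriers); dashed lines mark 2-fold. The carriers spread along the cloud of all genes, with Slc25a30, Slc25a22 and Slc25a42 above the upper line and Slc25a53 at the lower one.

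Among carriers above both floors, the largest difference was that of Slc25a30, a carrier first described in kidney and related in sequence to the uncoupling-protein relatives Slc25a14 and Slc25a27. Its brightest probe set was at 10259.9 in wild type against 2640.2 in null (3.89-fold). The other probe sets above both floors gave 4741.0 against 1797.0 (2.64-fold), 4687.0 against 1028.9 (4.56-fold) and 1500.1 against 570.8 (2.63-fold). A further, dim probe set gave 314.2 against 9.2, which allows only a bound of at least 1.17-fold. Its direction follows from its passing the floor in wild type alone, so the agreement is that of the 4 probe sets above both floors. Over the 4 measured on both arrays the mean log2 ratio was 1.73 with an SD of 0.40, a scatter between probe sets of 1 gene in 1 pair of pools.

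Slc25a22 and Slc25a42 followed. Slc25a22, a carrier that brings glutamate into the matrix with a proton, was at 3142.1 in wild type against 1228.6 in null (2.56-fold) at its single probe set. Slc25a42, which imports coenzyme A in exchange for adenine nucleotides, gave 4068.4 and 1848.1, a 2.20-fold difference. Its other probe set was above the floor in wild type only (492.9 against 47.5, at least 1.83-fold), which fixes its direction, so the Slc25a42 value rests on 1 probe set.

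The DNA before the starts of Slc25a30 and Slc25a42 is shown because both genes passed 2-fold and each has a single start in the RefSeq promoter table. The 250 bases before the start are given 5′ to 3′ on the gene's strand, from RefSeq on GRCm38.p6, at chr14:75787038-75787287 (minus strand) for Slc25a30 and chr8:70212282-70212531 (minus strand) for Slc25a42. Capitals mark CCAAT and GGGCGG on either strand (ATTGG and CCGCCC on the other), general promoter motifs.
Slc25a30: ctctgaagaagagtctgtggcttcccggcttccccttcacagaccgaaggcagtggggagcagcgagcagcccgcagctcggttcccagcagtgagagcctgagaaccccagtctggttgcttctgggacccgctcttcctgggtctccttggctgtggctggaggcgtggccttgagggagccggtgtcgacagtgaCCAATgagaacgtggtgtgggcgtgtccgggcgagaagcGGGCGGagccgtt
Slc25a42: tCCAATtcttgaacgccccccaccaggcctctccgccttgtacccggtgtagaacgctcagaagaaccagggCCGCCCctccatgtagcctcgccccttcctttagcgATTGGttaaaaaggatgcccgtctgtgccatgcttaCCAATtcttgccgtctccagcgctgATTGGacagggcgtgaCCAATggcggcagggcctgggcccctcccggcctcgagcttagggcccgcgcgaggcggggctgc

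Both stretches are rich in G and C, at 64.4% for Slc25a30 and 63.6% for Slc25a42. Slc25a30 holds 1 CCAAT and 1 GGGCGG, and Slc25a42 holds 5 CCAAT and 1 GGGCGG. PPARα with its partner RXR binds pairs of the letters AGGTCA set 1 base apart. Neither AGGTCANAGGTCA nor the looser AGGNCANAGGNCA was found on either strand of these stretches, nor in any of the 40 windows of the 32 carriers that the table holds. These letters are scarce in such windows, present in 0.0335% and 0.338% of all 32851. The single AGGTCA was in 15.0% of the carrier windows and 14.0% of all, CCAAT in 45.0% and 33.8%, and GGGCGG in 70.0% and 32.7%. Each match is a description of letters and not of a binding site.

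Of Ucp1 and Ucp3, the Ucp genes with a probe set under their symbol, only Ucp3 had a signal above a floor. Ucp3, known from skeletal muscle and brown fat, gave 456.1 in wild type and 265.4 in null, at least 1.69-fold, and 402.5 against 91.4 at its other probe set, at least 1.49-fold. With floors at the brightest Bacillus controls, probe sets for bacterial genes (316.5 in wild type and 422.4 in null), the Ucp3 bound was 1.08-fold. Ucp1 gave 54.2 and 40.3, under both floors, and so did Slc25a14 (80.5 and 119.6). Slc25a27 was under both floors at 3 of its 4 probe sets and gave 296.5 against 49.1 at the other, just over the wild-type floor.

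Skeletal muscle markers leaned the same way as Ucp3. Of 8, 5 were measured and all 5 were higher in wild type, but 4 of these were above the floor in wild type only, which fixes their direction. Acta1, the actin of skeletal muscle, gave 1223.5 in wild type and 229.7 in null, while the muscle creatine kinase Ckm gave 421.8 and 308.0. The summed signal of the 8, taken without the floor, was 3498.3 in wild type and 1038.8 in null. In null only Ckm was above the floor, so the rest of the null sum is signal under it. Myh4, Myl1 and Tnni2 lay under both floors. Of 6 adipocyte markers, Adipoq, Cidea, Lep and Retn lay under both floors, the fatty acid elongase gene Elovl3 was higher in wild type like Ucp3 (11922.7 against 6428.3, 1.85-fold), and Dio2 gave 295.8 against 308.8. The part of other tissue in the Ucp3 and Slc25a4 signals was not tested.

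Among the ADP/ATP carriers, which exchange cytosolic ADP for matrix ATP, the brightest probe set of Slc25a4 had a larger ratio than that of Slc25a5. Slc25a4, the isoform of heart and skeletal muscle, gave 1321.9 in wild type and 768.6 in null (1.72-fold), 1036.0 against 522.4 (1.98-fold) and 643.0 against 564.6 (1.14-fold). The 3 probe sets agreed in direction, and none reached 2-fold. Slc25a5, the isoform of liver and dividing cells, gave 70009.0 and 68132.3, and its 8 probe sets had log2 ratios from -0.07 to 0.37. That range takes in the smallest Slc25a4 ratio (0.19). These isoforms are close in sequence and Slc25a5 has processed copies in the genome, so their probe sets may share signal. Slc25a31, the germ cell isoform, lay under both floors. Slc25a3, the phosphate carrier that supplies ATP synthase, gave 60409.7 and 54561.0 (1.11-fold).

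The calcium-regulated carriers exchange ATP-Mg for phosphate and so set the adenine nucleotide content of the matrix. The 3 measured were lower in wild type, by small amounts for Slc25a23 and Slc25a25 at their brightest probe sets. Slc25a23 gave 3299.1 in wild type and 4050.2 in null (log2 ratio -0.30) and Slc25a25 5317.9 and 5685.7 (-0.10). Other Slc25a25 probe sets gave 574.2 and 598.8 (-0.06), and 255.3 and 466.0, above the floor in null only (at least 1.62-fold lower). Slc25a24 gave 257.9 and 379.0, above the floor in null only (at least 1.32-fold lower), so the size of its difference is not known. Slc25a41 lay under both floors. The signs of Slc25a23 and Slc25a25 turned under the control scaling.

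Carriers of citric acid cycle intermediates lay close to 0. The citrate carrier Slc25a1, which exports citrate for lipid synthesis, gave 8498.8 in wild type and 8126.3 in null (log2 ratio 0.06). The dicarboxylate carrier Slc25a10, which exchanges malate and succinate for phosphate, gave 6327.3 and 5533.8 (0.19) and 3182.0 and 2469.9 (0.37). The oxoglutarate carrier Slc25a11, part of the malate-aspartate shuttle, gave 5592.4 and 6587.0 (-0.24, positive under the control scaling).

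Of 7 amino acid carriers, 6 were measured. At the brightest probe sets the glutamate carriers Slc25a22 and Slc25a18, with 1 probe set each, had the largest ratios towards wild type. Beside Slc25a22, its relative Slc25a18 gave 520.2 in wild type and 322.8 in null (1.61-fold), although that null signal lay under the brightest Bacillus control. With floors at those controls Slc25a18 had only a bound, of at least 1.23-fold. The aspartate/glutamate carrier Slc25a12 gave 1898.7 and 2080.1 (-0.13), the basic amino acid carrier Slc25a29 1851.8 and 2552.7 (-0.46), and Slc25a38, which imports glycine for heme synthesis, 1627.5 and 1738.3 (-0.10). Slc25a12 and Slc25a38 turned positive under the control scaling, and a further Slc25a12 probe set above both floors gave 447.4 and 575.0 (-0.36). The remaining Slc25a12 probe set was above the floor in wild type only (487.9 against 184.5), which fixes its direction. Slc25a29 has no settled direction, since another of its probe sets above both floors gave 1645.7 and 1607.3 (0.03). Slc25a44, a carrier of branched-chain amino acids, gave 1849.5 and 1795.1 (0.04), but its other probe sets went opposite ways, with 842.0 against 1567.3 (-0.90) and 1035.1 against 583.8 (0.83). No direction can be given for Slc25a44. Slc25a2, an ornithine carrier, lay under both floors.

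Among carriers of nucleotides, coenzymes and vitamins, 1 of 7 measured genes, Slc25a42, was at least 2-fold apart. At their brightest probe sets the pyrimidine nucleotide carriers Slc25a33 and Slc25a36 went opposite ways. Slc25a33 gave 7178.5 in wild type and 4810.2 in null (1.49-fold higher), and Slc25a36 383.0 and 565.1 (1.48-fold lower). The wild-type signal of Slc25a36 was near the floor, and its other probe sets lay under both floors. Under the control scaling the log2 ratio of Slc25a36 was -0.18. Slc25a16, linked like Slc25a42 to coenzyme A, gave 5139.3 and 5250.1 (-0.03, of either sign across scalings), and the NAD carrier Slc25a51 gave 5863.3 and 5364.8 (0.13), with 2 other probe sets at -0.36 and -0.10. Slc25a32, which carries folate or FAD, gave 896.5 and 1160.9 (-0.37), and another probe set pointed the other way (727.7 against 493.7). Slc25a26, the S-adenosylmethionine carrier, gave 467.1 and 595.8 (-0.35). Its other probe set was above the floor in wild type only (376.1 against 71.3), which fixes that direction. For Slc25a51 and Slc25a32, probe sets above both floors disagreed, so no direction can be given.

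Glutathione and iron carriers differed by 1.17-fold or less at their brightest probe sets. Slc25a39, a carrier for glutathione, gave 52863.1 in wild type and 61619.7 in null (-0.22), and 4 probe sets above both floors lay between -0.22 and -0.09. Its paralog Slc25a40 gave 365.1 and 392.3 (-0.10), and both genes turned positive under the control scaling. The mitoferrins, which supply iron for heme and iron-sulfur clusters, gave 1989.7 and 1855.2 for Slc25a37 (0.10) and 1272.2 and 1418.5 for Slc25a28 (-0.16, positive under the control scaling). The erythroid marker Alas2 gave 4190.1 and 7033.1, and 2 of 4 measured erythroid markers were lower in wild type. Alas2 alone was above both floors, so the directions of Ermap, Hba-a1 and Slc4a1 follow from the floor.

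Of 6 measured carriers without a settled substrate, 5 were lower in wild type, of which Slc25a47 and Slc25a48 turned positive under the control scaling. Slc25a53 gave 218.6 in wild type and 585.9 in null, at least 2.04-fold lower, and its other probe set was under both floors. This call lay at the edge: the bound was 1.85-fold with floors at the brightest Bacillus controls and a log2 ratio of -0.65 under the control scaling. Slc25a45 was 1.54-fold lower (1088.1 against 1675.3), Slc25a35 at least 1.46-fold (209.6 against 419.9) and Slc25a48 at least 1.21-fold (46.8 against 348.1). Slc25a35, Slc25a48 and Slc25a53 were measured through null alone, so their direction follows from that. Slc25a47, a carrier found mainly in liver, gave 27509.0 and 28090.9 (-0.03, of either sign across scalings), and Slc25a46, an outer membrane protein of mitochondrial shape, 7923.5 and 7102.5 (0.16). Slc25a34 (29.5 and 254.8) and Slc25a54 (19.3 and 46.1) lay under both floors.

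**Figure D3:**
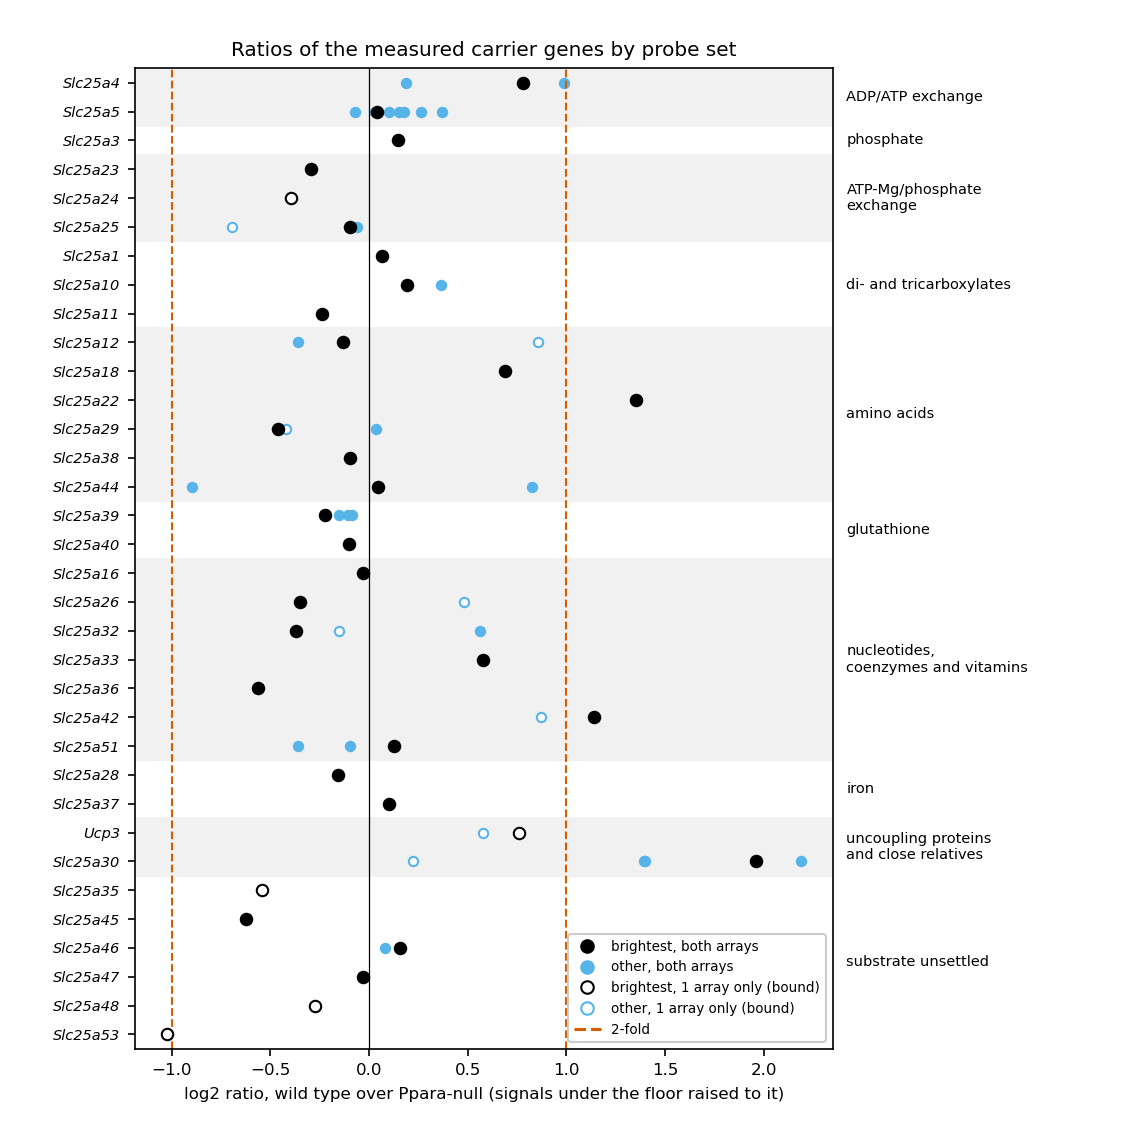
Log2 ratio of wild type over Ppara-null for every probe set of the 34 measured carriers that was above the floor on at least 1 array, by substrate; black points are the brightest probe set of a gene, blue points the others, open points are bounds from 1 array, and dashed lines mark 2-fold. Of the 5 Slc25a30 probe sets 4 lie beyond 2-fold, while those of Slc25a44 lie on both sides of 0.

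Probe sets of 1 gene give the only measure of scatter in these arrays. Of 12 carriers with more than 1 probe set above both floors, 7 had all of them on the same side of 0 and 5 did not. The pooled SD of their log2 ratios was 0.36 over 37 probe sets, beside 0.42 over all 3917 such genes of the array. Neither SD holds any variation from mouse to mouse or pool to pool. Over all carrier probe sets, 6 of 68 measured were at least 2-fold higher and 1 lower (8.82% and 1.47%, against 4.65% and 3.15% of all 22323), and 4 of the 6 were Slc25a30.

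The log2 ratios of the 4 related carriers outside the rule ran from -0.45 to 2.30, beside -1.03 to 1.96 for the measured carriers. Slc25a20 alone made the high end. The carnitine-acylcarnitine carrier Slc25a20 gave 34225.7 in wild type and 6947.9 in null (4.93-fold), and the aspartate/glutamate carrier Slc25a13 17599.7 and 13007.0 (1.35-fold). The ornithine carrier Slc25a15 gave 16943.0 and 23113.0 (-0.45, at -0.07 under the control scaling) and the peroxisomal Slc25a17 2364.4 and 2632.6 (-0.16, positive under it).

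The machinery that brings carriers into the inner membrane was measured on both arrays for 14 genes. Of these 0 were at least 2-fold apart, a count near the all-gene shares of 4.99% higher and 2.80% lower, with a median log2 ratio of 0.18 and 9 positive. The receptor Tomm70a, which recognises carrier precursors on the outer membrane, was the highest (9060.4 in wild type and 5989.7 in null, 1.51-fold), followed by Agk, a subunit of the inner membrane carrier translocase (561.6 and 410.6). The lowest were Tomm7 (-0.12) and Timm10b (-0.11), both positive under the control scaling. Of 16 other mitochondrial transporters and channels 0 were called at 2-fold, likewise near those shares, with a median of -0.08 that turned positive under the control scaling. Abcb10 (-0.53) and Sfxn3 (at least 1.42-fold lower) were at the low end, and Tspo (0.32) and Sfxn5 (0.31) at the high end. Sfxn3 and Sfxn4 (47.2 against 330.0) were above the floor in null only, so the size of their difference is not known.

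**Figure D4:**
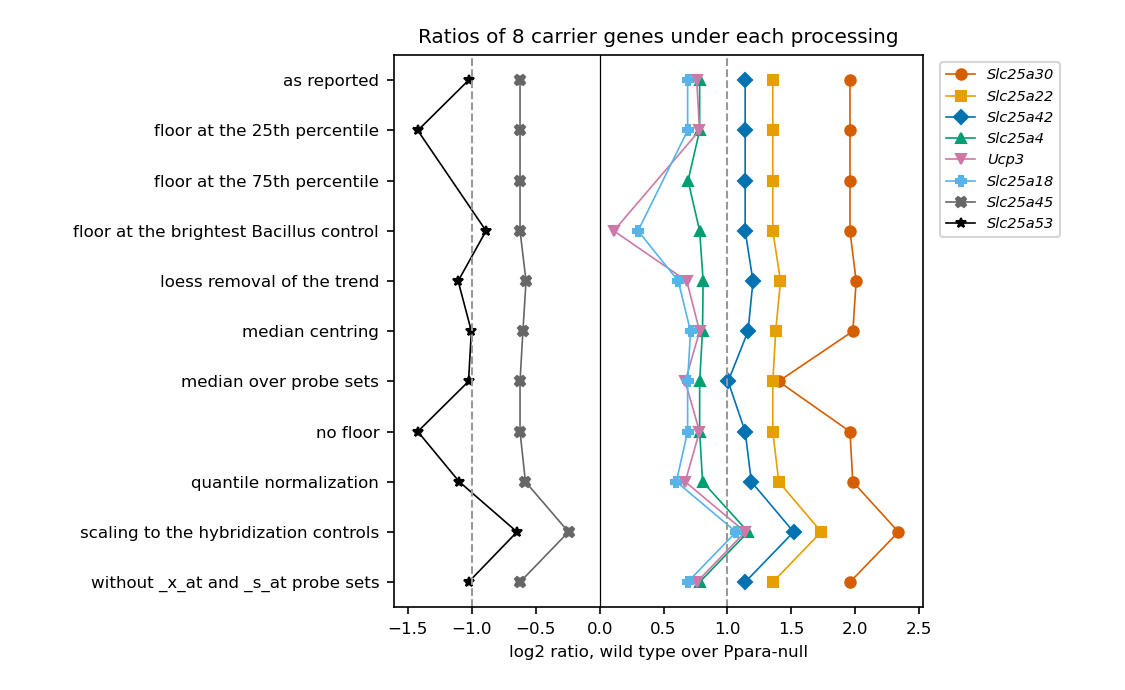
Log2 ratio of wild type over Ppara-null for 8 carriers (colours and symbols) as reported and under each alternative processing; dashed lines mark 2-fold, lines join values of 1 gene, and a missing point means that the gene was under both floors. Slc25a30, Slc25a22 and Slc25a42 stay at or beyond 2-fold throughout, although their signals lie above every floor tried, so the floors could not move them. Slc25a4, Ucp3 and Slc25a18 pass 2-fold only with scaling to the hybridization controls.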

How the data were processed

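Liver RNA of 1 pool per genotype was hybridised to 1 array each, giving 45101 probe sets, of which 64 are controls. Per the labels, the authors made the deposited signal intensity of each probe set with the Affymetrix statistical algorithm and scaled all probe sets of an array to 1000. The mean without the lowest and highest 2% was 1000.01 on both arrays. The labels repeat 1 settings text for both arrays, and the software version is not given in the sources used here.

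Genes were named from the platform annotation of 2016. Of 45037 probe sets that are not controls, 932 had several symbols and 9160 none, and these were left out, among them 1 shared by Slc25a37 and another gene. Identifiers of all 42 carriers matched their symbol in the RefSeq gene table. No build is named for the arrays, so coordinates are given only for RefSeq promoter windows. Listed genes without a probe set under their symbol were not analysed here.

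The log2 ratios, floors, and 2-fold calls were computed from these intensities in Python 3.11.15 with pandas 2.3.3 and tested on simulated data. With 1 array per genotype there is no test, and the number of arrays limits the precision. The members, the substrate and marker lists and all settings were chosen with earlier results of these data known, so nothing here is independent support for those results. All carriers could be named, and other genes by fixed lists. The choices varied were the scaling (centring on the median, quantile, loess, or the 18 hybridization control probe sets), the floor (4 others), the probe sets used (their median, or none of the _x_at and _s_at kinds) and the threshold (1.5-fold or 3-fold).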

Additional observations from a re-analysis of the deposited data

How the results depend on the processing

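The 3 carriers at least 2-fold higher in wild type remained so, as the same genes, under all scalings, floors and ways of choosing probe sets that were run, with Slc25a30 between 2.64-fold and 5.05-fold, Slc25a22 between 2.56-fold and 3.33-fold and Slc25a42 between 2.01-fold and 2.86-fold. Most of these settings could not move them. Their brightest probe sets lay above every floor tried on both arrays and are not of the _x_at or _s_at kinds. Slc25a22 has a single probe set, so only the scalings could change its ratio. For Slc25a30 and Slc25a42 the median over probe sets could do so too. Of 34 measured carriers, 6 were higher with scaling to the hybridization controls (beside 13.5% of all genes), 6 at a threshold of 1.5-fold (14.8%) and 1, Slc25a30, at 3-fold (1.01%). The count of lower carriers was less stable. Lowering the floor to the 25th percentile gave 5 of 38 measured carriers, beside 9.87% of all genes. The count was 7 of 42 with no floor (beside 11.97%) and 2 of 34 at 1.5-fold (11.0%). With the floor moved up it was 0 of 25 at the 75th percentile (1.33%) and 0 of 31 at the brightest Bacillus controls (2.58%). It was 0 of 34 with the control scaling (0.84%) and at 3-fold (0.44%). Slc25a48, which has only a bound, had log2 ratios of -2.03 with the floor at the 25th percentile and -2.89 without one. The median log2 ratio of measured carriers, -0.06, lay between -0.10 and 0.04 except under the control scaling, where it was 0.32. Slc25a26 moved from -0.35 to 0.48 without probe sets ending in _x_at or _s_at. Signals near the floor limit what can be said of Ucp3, Slc25a18, Slc25a35, Slc25a36, Slc25a48 and Slc25a53. No paired analysis was possible because each genotype has 1 array. The causes of these shifts were not tested.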
